A study of Mus musculus with 4 samples.

Results

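The CCR4-NOT complex is the major cytoplasmic deadenylase of animal cells, and the genes of its subunits were followed here in mouse embryonic stem cells (ESCs), across 4 RNA-seq libraries made from poly(A)+ RNA. The members were taken by name from the deposited count table, which held all 10 (*Cnot1*, *Cnot2*, *Cnot3*, *Cnot6*, *Cnot6l*, *Cnot7*, *Cnot8*, *Cnot9*, *Cnot10* and *Cnot11*) among 50559 genes. All 10 passed a minimum mean count of 10 reads over the 4 libraries, as did 18586 genes in total, and all 10 also passed a minimum of 500. The libraries came from E14, an established mouse ESC line, grown with leukemia inhibitory factor and serum replacement on gelatin. In the shScram+EV library the cells carried a scrambled hairpin and an empty vector, and in the shYthdf2+EV library a hairpin against *Ythdf2* and the empty vector. In the shYthdf2+DF2WT and shYthdf2+DF2Mut libraries the cells carried the *Ythdf2* hairpin with a construct for wild-type YTHDF2 or for YTHDF2 mutated in its m6A-binding site. They are called the control, knockdown, wild-type rescue and mutant rescue libraries below, in that order. Per the methods of the study, hairpins were delivered by lentivirus into stable puromycin-selected lines, and the ESCs held a tdTomato reporter driven by the MERVL promoter. Of the 2 hairpins listed against *Ythdf2*, the sources do not say which was used here.

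CCR4-NOT shortens the poly(A) tail of mRNA, which is commonly the first step of mRNA decay. CNOT1 is the scaffold on which the other subunits assemble. CNOT6 or its paralog CNOT6L and CNOT7 or its paralog CNOT8 are the nucleases, with 1 paralog of each pair in a given complex. CNOT2 and CNOT3 form the NOT module, CNOT9 offers a docking surface to adaptor proteins, and CNOT10 and CNOT11 bind the amino-terminal part of CNOT1. YTHDF2, a cytoplasmic reader of N6-methyladenosine (m6A), contacts CNOT1 and in this way brings the complex to methylated mRNA. The comparisons below ask how far the transcripts of the complex itself differed between cells with and without YTHDF2, and between cells given the wild-type and the mutant protein.

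There was 1 library per group, so no difference has a replicate check, no test across samples was possible and no p-value is given. Every statement compares libraries and not conditions, and the intervals in parentheses are 95% Clopper-Pearson intervals on read pairs that cover counting error only, since amplified reads are not independent molecules. Levels within a gene are given as CPM, the counts per 1000000 scaled reads, and differences as log2 ratios of the same scaled counts. Fewer cells expressing a gene and less RNA per cell cannot be told apart in such bulk samples.

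Total counts ranged from 31533129 to 35742335 reads per library, and mitochondrially encoded genes took between 6.14% and 8.44% of them. *Ythdf2* had 2806 reads in the control, 662 in the knockdown, 7661 in the wild-type rescue and 6925 in the mutant rescue, in the direction of the labels. The 8 ESC markers, among them *Pou5f1*, *Nanog* and *Sox2*, were detected in every library and summed to between 4956 and 5376 CPM. The 5 markers of the 2-cell-like state, the *Zscan4c*, *Zscan4d*, *Usp17la*, *Tcstv3* and *Zfp352* genes, were also detected in every library and summed to 89.5 CPM in the control, 319 in the knockdown, 104 in the wild-type rescue and 276 in the mutant rescue. The 5 trophectoderm markers summed to 105, 68.0, 103 and 67.7 CPM in the same order, mostly from *Tfap2c* and *Krt8*, the 5 primitive endoderm markers to between 11.9 and 22.7 CPM, and the 5 fibroblast markers to between 335 and 363 CPM, mostly from *Vim*. Of all these markers the fibroblast gene *Col3a1* was at 0 reads in the control and the wild-type rescue, and none of the others was at 0 in any library.

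The paralogous nucleases are compared with each other below, so a stretch of each coding sequence is shown first, to let a reader see how reads of the paralogs differ. The 100-base windows hold the longest run of bases that the paralogs share, which was 20 bases in both pairs, and capitals mark every position at which they differ. *Cnot6* and *Cnot6l* differed at 21 positions of their window and were identical at 73.6% of the aligned coding positions. *Cnot7* and *Cnot8* differed at 24 positions and were identical at 72.3%. The sequences are from the GENCODE vM21 transcripts on mm10 and are written 5′ to 3′ on the coding strand.
Cnot6 (coding exon, minus strand, chr11:49677402-49677501): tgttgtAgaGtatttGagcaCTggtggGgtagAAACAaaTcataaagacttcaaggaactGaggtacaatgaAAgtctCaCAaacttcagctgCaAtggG
Cnot6l (coding exon, minus strand, chr5:96080035-96080134): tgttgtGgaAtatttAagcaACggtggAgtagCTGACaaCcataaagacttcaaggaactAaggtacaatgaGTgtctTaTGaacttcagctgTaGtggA
Cnot7 (coding exons joined across introns, minus strand, chr8:40499391-40500802): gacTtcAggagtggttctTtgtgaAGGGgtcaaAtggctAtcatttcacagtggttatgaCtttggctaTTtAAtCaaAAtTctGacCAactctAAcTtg
Cnot8 (coding exons joined across introns, plus strand, chr11:58113163-58113998): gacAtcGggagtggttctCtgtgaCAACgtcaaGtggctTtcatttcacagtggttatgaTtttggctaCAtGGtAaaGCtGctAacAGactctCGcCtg

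The subunit genes were expressed at very different levels in the ESCs. Divided by the summed exon length of the table (CPM per kb, written RPKM), *Cnot1* was the highest and *Cnot6l* the lowest in all 4 libraries, 27.6-fold apart in the control, 21.6-fold in the knockdown, 24.4-fold in the wild-type rescue and 24.1-fold in the mutant rescue. The mean level over the 4 libraries was 89.1 RPKM for *Cnot1*, 48.7 for *Cnot9*, 38.2 for *Cnot10*, 23.9 for *Cnot8*, 21.6 for *Cnot2*, 17.2 for *Cnot11*, 13.7 for *Cnot6*, 13.2 for *Cnot3*, 13.0 for *Cnot7* and 3.65 for *Cnot6l*. The ranges over the libraries did not overlap between *Cnot1*, *Cnot9*, *Cnot10* and the members ranked after them, nor between *Cnot6l* and the rest. Those of *Cnot8* (22.2 to 25.3 RPKM) and *Cnot2* (17.9 to 24.7) did overlap, as did those of *Cnot2* and *Cnot11* (14.7 to 20.2), of *Cnot11* and *Cnot6* (11.8 to 15.3), and of *Cnot6*, *Cnot3* and *Cnot7*. Among the 18586 genes compared, *Cnot1* stood at the 96.6th percentile of level per length and *Cnot6l* at the 51.4th.

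The order depended on the length used. Divided by the length of the longest protein-coding transcript instead, *Cnot3* had a mean of 48.6 RPKM and stood beside *Cnot9* at 49.0, since its summed exons span 10402 bases and that transcript 2822. *Cnot1* at 102 RPKM and *Cnot6l* at 4.13 kept the ends of the order on this scale. Overlapping and copied sequence also bears on these levels, because reads that hit several genes or places were left out of the counts. Exons of *Gm15927* on the other strand covered 16.4% of the *Cnot3* exon length, those of *Zdhhc2* covered 11.8% of *Cnot7*, those of *LOC118567681* covered 11.3% of *Cnot10*, those of *5330438D12Rik* covered 9.59% of *Cnot2* and those of *4930513N10Rik* covered 8.12% of *Cnot1*. Exact stretches of at least 100 bases that another gene also holds made up 40.9% of the *Cnot3* transcript (*Gm9207* and *Leng1*), 14.2% of *Cnot8* (*Gm18860*), 11.3% of *Cnot1* (*4930513N10Rik* and *Gm6158*), 6.61% of *Cnot7* (*Zdhhc2*) and 4.10% of *Cnot9* (*Usp37*). The other 5 members shared no such stretch, *Cnot6* and *Cnot6l* included.

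**Figure D1:**
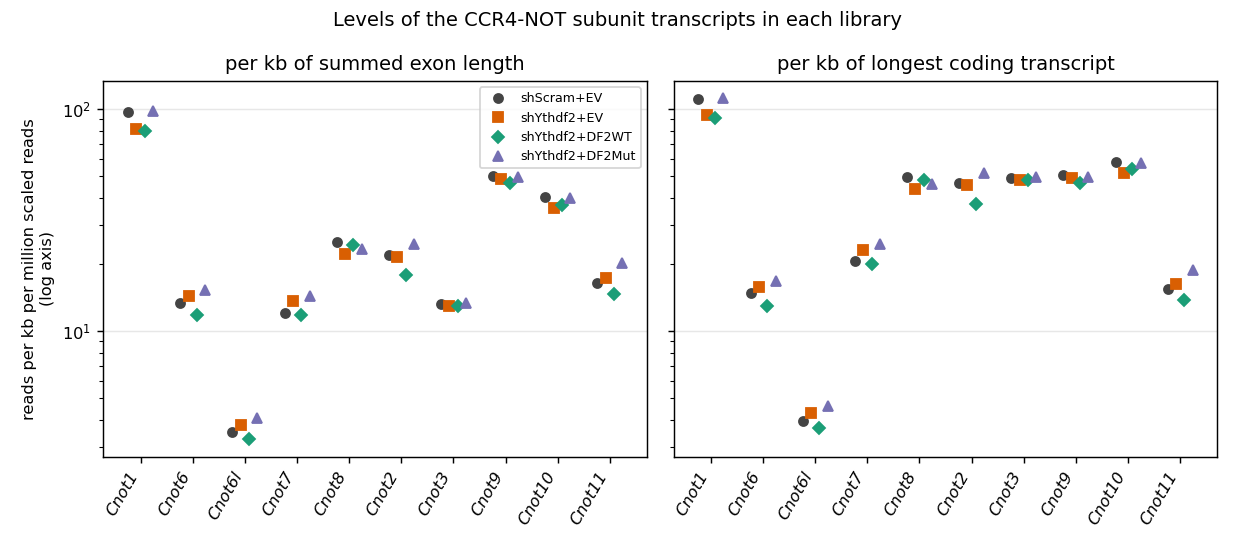
Level of each subunit transcript in each of the 4 libraries, in CPM per kb on a log axis, per kb of summed exon length (left) and per kb of the longest protein-coding transcript (right). Each point is 1 library; *Cnot1* lies highest and *Cnot6l* lowest on both scales, whereas *Cnot3* moves from a mean of 13.2 to 48.6.

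The scaffold gene *Cnot1* (mm39 chromosome 8, 96445559 to 96534741, minus strand) supplied about as many reads as the other 9 members together. It had 29444 reads in the control, 28330 in the knockdown, 25173 in the wild-type rescue and 29983 in the mutant rescue, which corresponds to 932, 788, 765 and 943 CPM. Without a correction for base composition, the control and mutant rescue libraries were therefore high and the knockdown and wild-type rescue libraries low. On this scale its level did not follow the level of *Ythdf2*. After a correction of all ratios for GC content and exon length, the grouping was lost. The ratios to the control were then -0.25 in the knockdown, -0.13 in the wild-type rescue and -0.14 in the mutant rescue. That of the mutant rescue to the wild-type rescue was -0.01. Its log2 ratio of the knockdown to the control was -0.24 (-0.28 to -0.21), the lowest of the 10 members in that comparison. With the wild-type construct the ratio to the knockdown was -0.04 (-0.08 to -0.01), and with the mutant construct 0.26 (0.23 to 0.29). *Cnot1* took 49.8% of the summed reads of the 10 genes in the control (49.3 to 50.4), 46.2% in the knockdown (45.7 to 46.8), 47.0% in the wild-type rescue (46.4 to 47.6) and 48.9% in the mutant rescue (48.4 to 49.5).

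Among the nucleases of the CCR4 type, *Cnot6* (chromosome 11, 49562324 to 49604227, minus strand) had 85.0 CPM in the control, 90.7 in the knockdown, 74.4 in the wild-type rescue and 96.6 in the mutant rescue. Its paralog *Cnot6l* (chromosome 5, 96218192 to 96312044, minus strand), a nuclease gene known for its part in the clearance of maternal mRNA, had 34.0, 36.7, 31.5 and 39.4 CPM in the same order. Both were lowest with the wild-type construct and highest with the mutant construct, but this order depended on base composition. After the GC and length correction the log2 ratio of the mutant rescue to the wild-type rescue was -0.07 for *Cnot6* and -0.22 for *Cnot6l*. The nuclease gene of the CAF1 type *Cnot7* (chromosome 8, 40945579 to 40968888, minus strand) followed the same order of libraries as *Cnot6l*, with 61.8 CPM in the control, 69.3 in the knockdown, 60.1 in the wild-type rescue and 73.5 in the mutant rescue. *Cnot8* (chromosome 11, 57983620 to 58009423, plus strand) had 104 CPM in the control, 91.6 in the knockdown, 101 in the wild-type rescue and 96.4 in the mutant rescue. Without the correction it was therefore high where its paralog *Cnot7* was low. With it, *Cnot7* was at -0.10 in the mutant rescue against the wild-type rescue. The ratio of the wild-type rescue to the knockdown was then above 0 for both paralogs, at 0.11 for *Cnot7* and 0.19 for *Cnot8*.

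In the NOT module, *Cnot2* (chromosome 10, 116321065 to 116418891, minus strand) had 129.7 CPM in the control, 128 in the knockdown, 105 in the wild-type rescue and 145 in the mutant rescue, so that the wild-type construct stood apart on the low side. After the GC and length correction the log2 ratio of the wild-type rescue was -0.15 to the control and -0.06 to the knockdown. *Cnot3* (chromosome 7, 3646717 to 3664108, plus strand) had 138, 136, 136 and 139 CPM in the same order, a 1.03-fold range that was the narrowest of the 10. *Cnot9* (chromosome 1, 74545192 to 74570001, plus strand), whose product binds adaptor proteins, had 166 CPM in the control, 159.9 in the knockdown, 153 in the wild-type rescue and 163 in the mutant rescue, within 1.09-fold. The module at the amino-terminal end of CNOT1 was not uniform. *Cnot10* (chromosome 9, 114414942 to 114469289, minus strand) had 166, 148, 153 and 164 CPM, and *Cnot11* (chromosome 1, 39574782 to 39585962, plus strand) had 54.1, 56.8, 48.1 and 66.1 CPM, again in the same order of libraries. *Cnot10* was lowest in the knockdown, whereas *Cnot11* was lowest with the wild-type construct and highest with the mutant construct.

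Across the 4 libraries the range from the lowest to the highest level was widest for *Cnot2* (1.38-fold) and *Cnot11* (1.37-fold). The median log2 range of the 6315 genes averaging 1000 reads or more was 0.30, and 6 of the 10 members had a narrower range than that. The most alike pair of members, by the distance between their library-centred log2 CPM values, was *Cnot6l* and *Cnot7* (0.05), followed by *Cnot6* and *Cnot6l* (0.06). The least alike was *Cnot8* and *Cnot11* (0.41). These distances rest on 4 libraries and describe the shape of the levels only. They were taken without a correction for base composition. *Cnot6l*, *Cnot6* and *Cnot7* had the lowest GC content of the members, at 37.6%, 39.8% and 40.7%, and the part of this in their likeness was not tested.

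Between the knockdown and the control, none of the 10 members differed by 1.2-fold or more in either direction. Over all genes compared, 27.5% were past this fold on the higher side in the knockdown and 27.1% on the lower side. Among the 8542 genes averaging 500 reads or more, a group closer to the members in depth, the shares were 18.2% and 17.0%. The member ratios ran from -0.24 for *Cnot1* to 0.17 (0.04 to 0.29) for *Cnot7*, with a median of -0.02 beside a median of 0.00 over all genes. Intervals that left out 0 were found below 0 for *Cnot1*, *Cnot8* (-0.18, -0.28 to -0.09) and *Cnot10* (-0.16, -0.24 to -0.08), and above 0 for *Cnot7*. Under total-count scaling the median of the members was 0.02, so its sign depended on the scaling.

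The summed reads of the 10 genes gave a log2 ratio of -0.13 (-0.16 to -0.11) in this comparison, and of -0.03 (-0.07 to 0.00) without *Cnot1*. The lower sum in the knockdown therefore came mostly from the scaffold gene. The *Cnot1* ratio was -0.25 after a correction of all ratios for GC content and exon length, and ranked at the 28.6th percentile of all genes without it.

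When wild-type YTHDF2 was compared with the empty vector in the knockdown line, 2 members were at least 1.2-fold lower, the nuclease gene *Cnot6* (-0.29, -0.39 to -0.18) and the NOT-module gene *Cnot2* (-0.28, -0.37 to -0.19), and none was higher. The shares over all genes were 24.8% lower and 25.9% higher, and 15.9% and 14.4% among genes averaging 500 reads or more. The ratio of *Cnot11* was -0.24 (-0.38 to -0.10), that of *Cnot6l* -0.22 (-0.39 to -0.05) and that of *Cnot7* -0.21 (-0.33 to -0.08), whereas *Cnot8* was at 0.14 (0.04 to 0.24). The median of the 10 was -0.14. After the GC and length correction it was 0.06 and *Cnot6* was at 0.07, so the sign of both depended on this correction. The sign also turned for *Cnot6l*, at 0.23, *Cnot7*, at 0.11, and *Cnot1*, at 0.13, while *Cnot2* was at -0.06. It turned the other way for *Cnot3*, from 0.002 to -0.12. *Cnot11* was then the member past 1.2-fold, at -0.29.

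With the mutant construct instead, no member passed 1.2-fold against the knockdown, beside 16.8% of all genes higher and 20.6% lower, or 5.12% and 8.73% of those averaging 500 reads or more. All 10 ratios lay above 0, from 0.02 (-0.05 to 0.10) for *Cnot9* to 0.26 for *Cnot1*, with a median of 0.10. When scaling used only genes averaging 500 reads or more, 9 of the 10 lay above 0, and after the GC and length correction 8 did, with a median of 0.02. *Cnot11* (0.22, 0.09 to 0.34) and *Cnot2* (0.18, 0.10 to 0.27) followed *Cnot1* without this correction. With it *Cnot11* was the highest, at 0.21, followed by *Cnot1* at 0.12, *Cnot10* at 0.10 and *Cnot2* at 0.08. This comparison shares the knockdown library with both comparisons above.

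**Figure D2:**
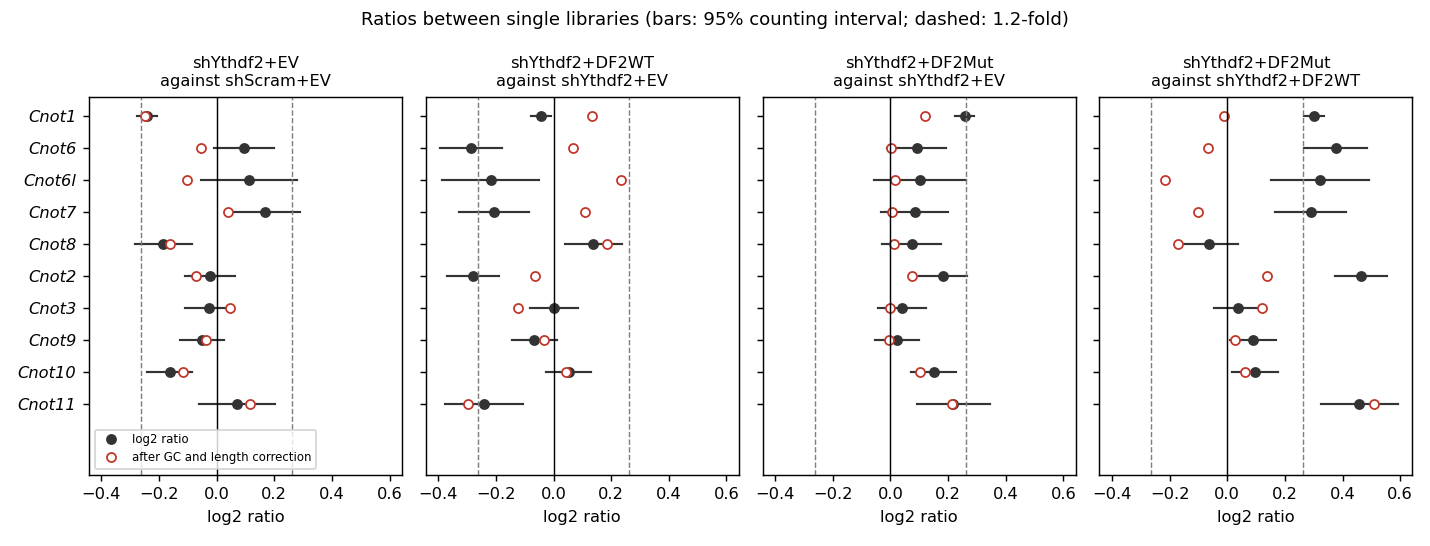
Log2 ratios of the 10 subunit genes between single libraries, in 4 library pairs, with the scaffold first, then the nucleases, the NOT module, *Cnot9*, *Cnot10* and *Cnot11*. Filled points are the ratios with their 95% counting intervals, open points the ratios after the GC and length correction, and dashed lines mark 1.2-fold; in the mutant against wild-type pair 6 filled points lie past the line on the higher side, but only *Cnot11* does after the correction.

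Without a correction for base composition, the rescue libraries gave the largest number of members past 1.2-fold of the 6 pairs. In the mutant rescue against the wild-type rescue, 6 of the 10 were at least 1.2-fold higher, beside 27.6% of all genes, and none was 1.2-fold lower, beside 30.7%. Among genes averaging 500 reads or more the shares were 22.1% and 20.7%. The 6 were *Cnot2* (0.46, 0.37 to 0.55), *Cnot11* (0.46, 0.32 to 0.59), *Cnot6* (0.38, 0.27 to 0.49), *Cnot6l* (0.32, 0.15 to 0.49), *Cnot1* (0.30, 0.27 to 0.34) and *Cnot7* (0.29, 0.17 to 0.41). They include the scaffold and 3 of the 4 nuclease genes. *Cnot10* (0.10, 0.02 to 0.18), *Cnot9* (0.09, 0.01 to 0.17) and *Cnot3* (0.04, -0.05 to 0.12) were close to 0, and *Cnot8* was the one member below it (-0.06, -0.17 to 0.04). The median was 0.30 over the members and -0.01 over all genes, and the summed reads gave 0.24 (0.22 to 0.27), or 0.19 (0.16 to 0.22) without *Cnot1*. After the GC and length correction the summed ratio was 0.020, the smallest of the 6 pairs, and that of the knockdown against the control was -0.14.

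Base composition moved with this comparison. Over the 16726 genes compared that had a GC value, the Spearman correlation of the log2 ratio with the GC content of the transcript was -0.41 across genes, which are not independent replicates and share these libraries. Of the 10 members, 8 had a GC content below the median of protein-coding transcripts, 50.5%. The members with the lowest GC content, *Cnot6l* (37.6%), *Cnot6* (39.8%), *Cnot7* (40.7%), *Cnot2* (43.8%) and *Cnot1* (45.8%), were all among the 6, and *Cnot3*, with the highest at 57.3%, was not. *Cnot11* was the exception, with a GC content of 51.8%. After the correction for GC content and length 1 of the 10 was past 1.2-fold, *Cnot11* at 0.51, and the median of the members was 0.01. The corrected ratios were -0.01 for *Cnot1*, -0.07 for *Cnot6*, -0.22 for *Cnot6l*, -0.10 for *Cnot7* and 0.14 for *Cnot2*. In the knockdown against the control the same correlation was -0.06. The wild-type rescue gave 0.35 against the knockdown and 0.36 against the control, and the mutant rescue -0.17 and -0.18. Among genes averaging 500 reads or more it was -0.54 for the mutant rescue against the wild-type rescue. The wild-type rescue there gave 0.46 against the knockdown and 0.60 against the control, and the knockdown against the control -0.002.

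**Figure D3:**
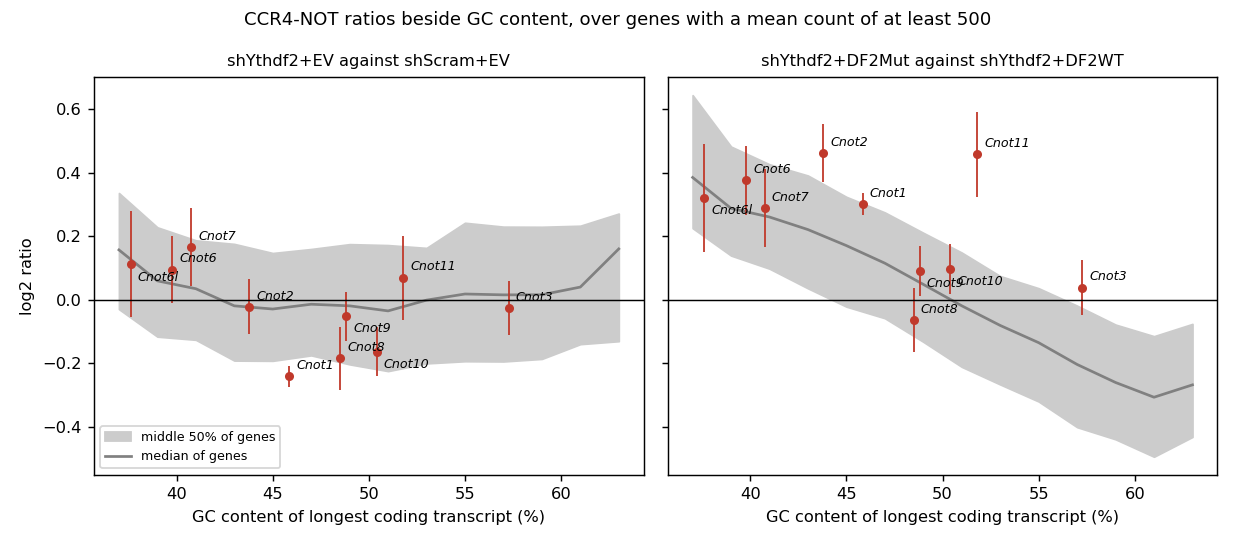
Log2 ratio against the GC content of the longest protein-coding transcript, for the knockdown against the control (left) and the mutant rescue against the wild-type rescue (right). The gray line is the median and the band the middle 50% of genes averaging 500 reads or more in bins of 2 percentage points, and red points are the subunit genes with 95% counting intervals; on the right the gray line falls over most of the GC range, and *Cnot11*, *Cnot2* and *Cnot3* lie above the band.

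The remaining comparisons, against the control, share their control library with each other and with the knockdown comparison. In the wild-type rescue all 10 ratios lay below 0, from -0.30 for *Cnot2* (-0.40 to -0.21) to -0.02 for *Cnot3* (-0.11 to 0.06), but 3 lay above it under total-count scaling and 3 after the GC and length correction. *Cnot2* and *Cnot1* (-0.28, -0.32 to -0.25) were at least 1.2-fold lower, beside 18.7% of all genes, and none was higher, beside 22.9%. Among genes averaging 500 reads or more these shares were 9.46% and 11.5%. Neither gene passed under total-count scaling (-0.25 and -0.24) or after the GC and length correction (-0.15 and -0.13). In the mutant rescue 1 member was at least 1.2-fold higher, *Cnot11* (0.29, 0.16 to 0.42), beside 25.4% of all genes, and none was lower, beside 27.1%. The shares among the genes averaging 500 reads or more were 16.9% and 15.6%, and the *Cnot11* ratio was just under the threshold, at 0.26, with upper-quartile scaling. The *Cnot1* level with the mutant construct was within counting error of the control (0.02, -0.02 to 0.05), but its ratio was -0.14 after the GC and length correction. No member reached 1.5-fold in any of the 6 pairs. The shares of all genes past 1.5-fold in either direction were 26.7% for the knockdown against the control, 23.3% for the wild-type rescue and 15.3% for the mutant rescue against the knockdown, 27.1% for the mutant rescue against the wild-type rescue, and 16.4% and 25.7% for the wild-type and mutant constructs against the control. Among genes averaging 500 reads or more these shares were 6.94%, 4.95%, 1.10%, 8.92%, 1.01% and 6.17% in the same order.

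Without a correction for base composition, the balance between *Cnot7* and *Cnot8* separated the libraries. Per exon length, *Cnot8* made up 67.6% (65.8 to 69.3) of the *Cnot7* and *Cnot8* reads in the control, 62.0% (60.2 to 63.7) in the knockdown, 67.4% (65.7 to 69.2) in the wild-type rescue and 61.8% (60.0 to 63.6) in the mutant rescue. The intervals of the control and the wild-type rescue did not overlap those of the knockdown and the mutant rescue. Such a ratio within a library does not depend on library scaling. The log2 ratio of *Cnot8* to *Cnot7* in the knockdown minus that in the control was -0.35 (-0.51 to -0.19, exact conditional interval on read pairs), and that in the mutant rescue minus that in the wild-type rescue was -0.35 (-0.52 to -0.19).

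Other measures moved with this balance. The GC content was 40.7% for *Cnot7* and 48.5% for *Cnot8*. After the GC and length correction the difference was -0.20 for the knockdown against the control and -0.07 for the mutant rescue against the wild-type rescue. For the wild-type rescue it went from 0.34 to 0.08 against the knockdown, and from -0.01 to -0.12 against the control. The grouping of the wild-type rescue with the control therefore depended on this correction. The 5 markers of the 2-cell-like state were higher in the knockdown and the mutant rescue as well, at 319 and 276 CPM against 89.5 and 104. The summed level of the trophectoderm markers was lower in these libraries, at 68.0 and 67.7 CPM against 105 and 103. This sum came mostly from *Tfap2c* and *Krt8*. The weakly expressed *Cdx2* and *Gata3* did not follow it and were highest in the mutant rescue. The part of either list in the balance was not tested. In contrast, the share of *Cnot6l* among *Cnot6* and *Cnot6l* was 20.7% (19.0 to 22.4) in the control, 20.9% (19.4 to 22.4) in the knockdown, 21.6% (19.9 to 23.5) in the wild-type rescue and 21.0% (19.5 to 22.6) in the mutant rescue. These intervals all overlapped, and the log2 ratio of *Cnot6l* to *Cnot6* differed by 0.02 (-0.18 to 0.21) between the knockdown and the control and by -0.06 (-0.26 to 0.15) between the rescue libraries.

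**Figure D4:**
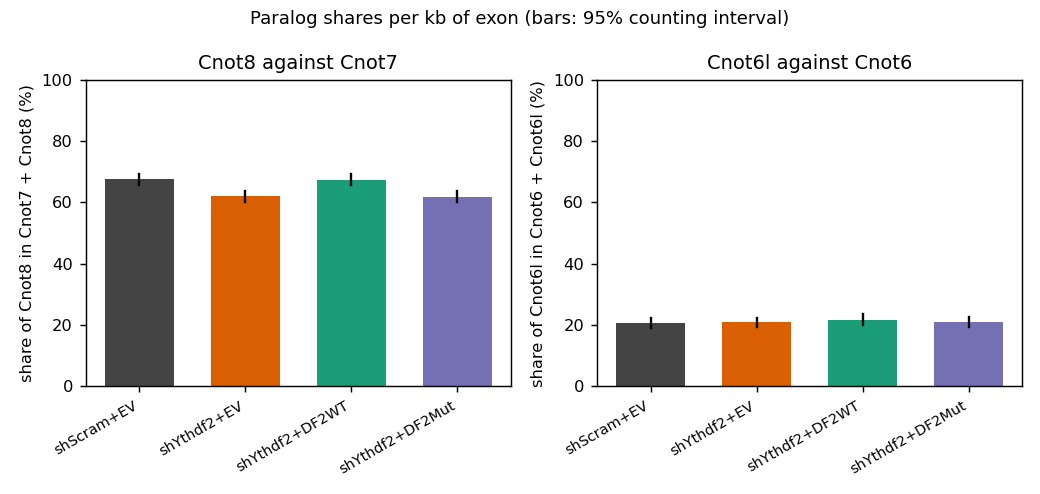
Share of *Cnot8* among *Cnot7* and *Cnot8* (left) and of *Cnot6l* among *Cnot6* and *Cnot6l* (right) in each library, in percent of reads per kb of exon, with 95% binomial counting intervals as vertical lines. The *Cnot8* share is 67.6% and 67.4% in the control and the wild-type rescue and 62.0% and 61.8% in the knockdown and the mutant rescue, whereas the *Cnot6l* share stays between 20.7% and 21.6%. The shares are not corrected for GC content.

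The genes most like *Cnot1* in their pattern over the 4 libraries, among genes averaging 1000 reads or more, were *Hltf*, *AB010352*, *Eprs*, *Zdhhc6* and *Usp1*, at distances of 0.01 to 0.02 between library-centred log2 CPM values. The nearest subunit gene was *Cnot10*, at rank 624 with a distance of 0.16, and the farthest was *Cnot7*, at rank 2464 with 0.29. Other subunits were thus not among the genes that followed the scaffold most closely in these 4 libraries.

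The motif GGACT, a common form of the m6A consensus, was searched on the sense strand of the longest protein-coding transcript of each gene. It was found in 9 of the 10 members and in 92.6% of 14324 transcripts. The members held a median of 0.69 matches per kb beside 1.06 over all transcripts. *Cnot6* had 1.92 per kb and *Cnot1* 1.31, the only members above that median, and *Cnot3* had no match. A match does not show that a site was methylated or bound.

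The genes around the complex were described by 4 lists, to be read beside the medians of 0.00 and -0.01 and the shares past 1.2-fold over all genes given above for the knockdown and the mutant against wild-type comparisons. Of the list of proteins that associate with CCR4-NOT, 7 of 8 genes were compared, and *Btg4* had no read in any library. In the knockdown against the control 1 was at least 1.2-fold higher and 1 lower, with a median of 0.05. In the mutant rescue against the wild-type rescue 3 were higher and 2 lower, with a median of 0.18, and after the GC and length correction 1 was higher and 0 were lower, with a median of -0.01. This correction was applied to the lists after seeing the data. *Btg2*, an antiproliferative protein that binds the CAF1 nucleases, had 2032 reads in the control, 3678 in the knockdown, 2588 in the wild-type rescue and 2841 in the mutant rescue, a knockdown ratio of 0.67 (0.56 to 0.78). It was higher in all 3 libraries with the *Ythdf2* hairpin than in the control. Its relative *Tob1* had 2180, 1986, 2095 and 2224 reads, a ratio of -0.32 (-0.45 to -0.20).

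All 8 genes of the list of other deadenylases and their relatives were compared, and 2 were higher and 2 lower in the knockdown, with a median of -0.08. For mutant against wild-type 3 were higher and 1 lower, with a median of 0.24, and with the correction 2 and 1, with a median of 0.01. *Noct*, a circadian member of the CCR4-type nuclease family, had 3075 reads in the control, 4855 in the knockdown, 3217 in the wild-type rescue and 4171 in the mutant rescue. The ratio was 0.47 (0.38 to 0.57), and the wild-type library was within counting error of the control (0.01, -0.10 to 0.11). *Angel1* (chromosome 12) showed the opposite order, with 1527, 903, 1496 and 844 reads and a ratio of -0.94 (-1.11 to -0.77). The 335 genes of its chromosome averaging 500 reads or more had a median of -0.29 in the same comparison, and the part of this in the *Angel1* value was not tested.

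Of the 17 adaptors that recruit the complex to mRNA, 16 were compared and *Nanos2* had no read. In the knockdown 3 were higher and 3 lower, with a median of 0.08, and in the mutant rescue against the wild-type rescue 7 were higher and 1 lower, with a median of 0.23. With the correction 3 were higher and 3 lower in the latter, with a median of 0.04. *Zfp36*, which directs AU-rich mRNA to deadenylation, had 864 reads in the control, 498 in the knockdown, 964 in the wild-type rescue and 405 in the mutant rescue, so that the knockdown and the mutant rescue were low. Its ratios were -0.98 (-1.21 to -0.75) for the knockdown and -1.20 (-1.45 to -0.96) for mutant against wild-type. The widest ratio of mutant to wild-type in this list, 1.54, belonged to *Nanos3*, which had 28, 58, 25 and 71 reads and is named after its values were seen. *Nanos1*, a translational repressor of germ cells and neurons, was at 274, 499, 359 and 446 reads, a ratio of 0.68 (0.37 to 0.99).

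The poly(A)-binding proteins and their regulators gave 6 of 7 genes to compare, of which 1 was higher and 2 lower in the knockdown, with a median of -0.08. Between the rescue libraries 1 was higher and 2 lower with the mutant construct, with a median of 0.05, and with the correction 0 were higher and 3 lower, with a median of -0.23. The cytoplasmic *Pabpc1*, which coats the tail that CCR4-NOT removes, had 92808 reads in the control, 87638 in the knockdown, 82043 in the wild-type rescue and 85410 in the mutant rescue, a ratio of -0.27 (-0.29 to -0.25). The nuclear *Pabpn1* had 566, 967, 1024 and 537 reads, a ratio of 0.59 (0.37 to 0.80), with the mutant rescue close to the control (-0.09, -0.33 to 0.16). The named genes of each list are those with the highest and lowest knockdown ratio at an average of 50 reads or more, so these extremes are a description of what the rule chose.

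**Figure D5:**
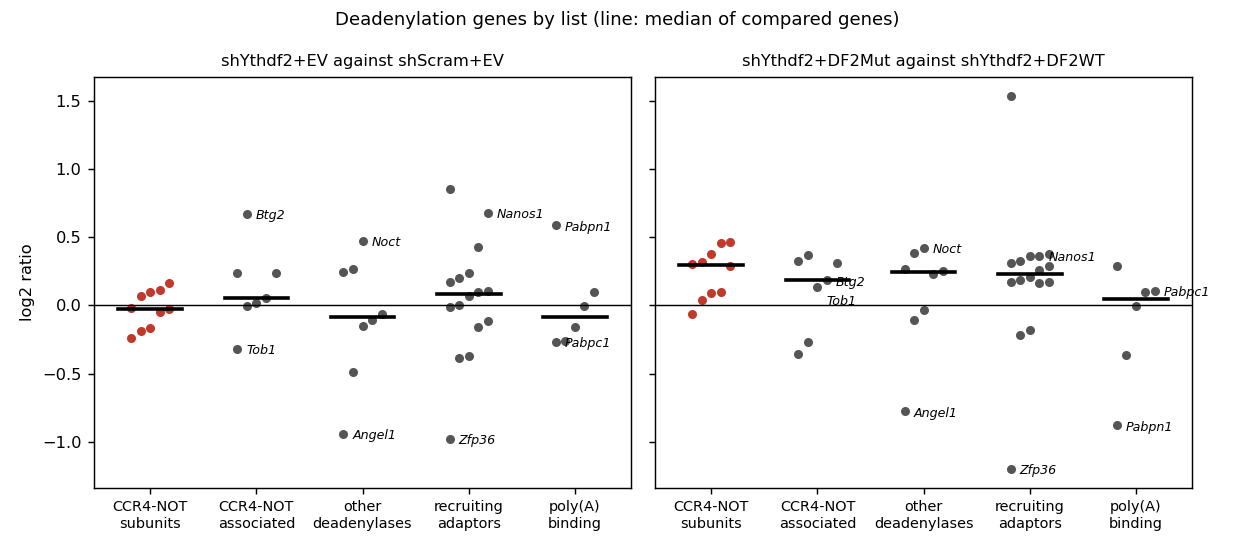
Log2 ratios of the 10 subunit genes (red) and of the genes of the 4 related lists (gray) for the knockdown against the control (left) and the mutant rescue against the wild-type rescue (right), with the median of each list as a bar. Each point is 1 gene; on the left the subunit genes lie between -0.24 and 0.17, whereas the related genes include *Zfp36* at -0.98 and *Btg2* at 0.67.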

How the data were processed

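Per the file headers, the authors made raw read counts per gene by running featureCounts 2.0.3 over the exons of the RefSeq genes of mm39 (UCSC), without strand and with each mate counted, so read pairs were taken as reads divided by 2. The submitters' processing notes name fastp 0.19.4, HISAT2 2.2.1, DESeq2 1.40.2 and the build mm10, whereas the header names mm39. Gene coordinates are those of the deposited table. Libraries were grouped by title. Here, counts were scaled by the TMM factors of edgeR 4.0.16 (R 4.3.3), and log2 ratios were taken after adding 0.5 reads, in proportion to library size. Genes averaging 10 reads or more were compared. A gene was counted as higher or lower at 1.2-fold, with 1.5-fold as the stricter setting. The steps were tested on simulated counts. The GC and length correction subtracted a cubic fit of the ratio on both properties, using GENCODE vM21 transcripts (mm10). The members, lists and named-gene rule (the members, *Ythdf2*, the highest and lowest knockdown ratio of each list at a mean count of at least 50, and the 5 genes most like *Cnot1*) were chosen with earlier results of these data known. Replicates are described in the methods, whereas by the labels every group had 1 library.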

Additional observations from a re-analysis of the deposited data

How the results depend on the processing

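No paired analysis was possible because each group had 1 library, and for the same reason leaving out a replicate was not run. Of 652 alternative values for 86 results, 570 stayed within their counting interval or, for a count, within 1.5 times, 77 moved and 5 ratios past 1.2-fold reversed, all 5 under the GC and length correction. The cause of these shifts was not tested. With that correction the summed log2 ratio against the knockdown was 0.064 for the wild-type rescue (-0.067 without it) and 0.079 for the mutant rescue (0.18 without it). It was 0.020 for the mutant rescue against the wild-type rescue (0.24 without it). Against the control it was -0.10 for the wild-type construct (-0.20 without it) and -0.078 for the mutant construct (0.043 without it). The sign thus turned for the wild-type rescue against the knockdown and the mutant construct against the control. With the correction the number of members past 1.2-fold was 1 for the wild-type rescue against the knockdown, 1 for mutant against wild-type and 0 for wild-type against the control. The reversed values were *Cnot6* at 0.069 in the wild-type rescue against the knockdown, and *Cnot1* at -0.012, *Cnot6* at -0.067, *Cnot6l* at -0.22 and *Cnot7* at -0.10 in mutant against wild-type. Total-count scaling gave summed ratios of -0.090 for the knockdown, -0.15 for the wild-type rescue and 0.090 for the mutant rescue against the control, with 0 members past 1.2-fold for the wild-type and 2 for the mutant construct. Upper-quartile scaling gave 0.21 for mutant against wild-type and 0.016 for the mutant construct against the control, with 0 members past 1.2-fold in the latter, 1 in the wild-type rescue against the knockdown and 5 in place of 6 in mutant against wild-type, without *Cnot7*. Scaling on genes averaging 500 reads or more gave 0.15 for the mutant rescue against the knockdown, 0.21 for mutant against wild-type and 0.017 for the mutant construct against the control, with 0 members past 1.2-fold in the last and 5 in mutant against wild-type, again without *Cnot7*. At 1.5-fold, 0 members passed in every pair. Without division by length, the *Cnot6l* share was 28.6%, 28.8%, 29.8% and 29.0%, and the *Cnot8* share 62.8%, 56.9%, 62.6% and 56.7%, in the order the control, the knockdown, the wild-type rescue and the mutant rescue. With the length of the longest protein-coding transcript, an alternative chosen after seeing the data, the *Cnot8* share was 70.5%, 65.2%, 70.4% and 65.1%. DESeq2 size factors, TMM without mitochondrially encoded genes, a prior count of 5 and a minimum mean count of 1 moved none of the single-gene ratios beyond their intervals.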
